A study of Homo sapiens with 3 samples.

Results

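The genes described here are the interleukin-6 (IL6) family cytokines IL6, IL11 and LIF, their receptors IL6R, IL6ST, LIFR and OSMR, the signal transducer STAT3 and the feedback inhibitor SOCS3. They were chosen by name from this pathway with earlier results of these same arrays known, so their values are given as a description. All 9 genes were found among the 19775 genes of the array, with 30 of the 41097 probe sets that are paired with exactly 1 gene symbol. Expression was measured in MDA-MB-231, an established human breast cancer line of mesenchymal-like character that is commonly taken as lacking the oestrogen receptor alpha (ERα). Cells were first held for 4 h in steroid-poor medium (10% charcoal-stripped serum) and then treated for 3 h. The vehicle cells (1 array) received 0.1% ethanol, the hormone-treated cells (1 array) 1 µM estradiol, and the peptide-treated cells (1 array) 1 µM ERα17p, whose sequence comes from ERα and whose solvent the labels leave out. The study's question is the early transcript response to either agent. With 1 array per group there is no replicate, no SD and no test, and every difference below describes these arrays.

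Most IL6 family cytokines signal through IL6ST, also called gp130, a receptor subunit that they share. IL6 and IL11 first bind their own receptors (IL6R and IL11RA), while LIF engages LIFR and oncostatin M engages OSMR or LIFR together with IL6ST. The receptors activate JAK kinases, which phosphorylate STAT3. STAT3 then enters the nucleus and induces genes that include SOCS3, an inhibitor that binds the receptor and ends the signal. In breast cancer lines IL6 is known as a secreted product of the more mesenchymal-like lines.

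The arrays hold deposited log2 values that were centred for each probe set on a reference level that the sources used here do not describe. A value of 0 is that reference, so a gene's expression level and its detection are unknown, and only differences between arrays can be read. The line's identity could therefore not be checked on marker levels. The arrays read bulk cultures, in which fewer expressing cells and less RNA per cell cannot be told apart. The vehicle array stood apart from both treated arrays: its SD over all probe sets was 0.494, against 0.260 and 0.241 on the estradiol and ERα17p arrays. Bacterial labelling spikes, which no treatment can change, were 2.03 and 2.04 higher on the treated arrays (27 probe sets), and hybridisation spikes were at -0.74 and -0.93 (18 probe sets). The part of these array differences in the comparisons with vehicle was not tested.

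The RefSeq sequence (GRCh38.p14) upstream of the start is shown for the 3 genes that differed by at least 2-fold from vehicle on both treated arrays, each as the 250 bases that end at the base before the start. IL6 lies at chr7:22726950-22727199 on the plus strand, IL11 at chr19:55370464-55370713 on the minus strand and OSMR at chr5:38845762-38846011 on the plus strand. Capitals mark matches to 5 motifs searched on both strands: AP-1 (TGANTCA), the CRE core (ACGTCA), C/EBP (TTGNNCAA), STAT (TTCNNNGAA) and the NF-kB consensus.
IL6: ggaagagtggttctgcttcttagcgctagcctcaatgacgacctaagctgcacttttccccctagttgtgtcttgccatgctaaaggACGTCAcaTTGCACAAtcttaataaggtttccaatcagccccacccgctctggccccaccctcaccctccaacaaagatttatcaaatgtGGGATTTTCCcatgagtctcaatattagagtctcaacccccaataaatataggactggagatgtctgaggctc
IL11: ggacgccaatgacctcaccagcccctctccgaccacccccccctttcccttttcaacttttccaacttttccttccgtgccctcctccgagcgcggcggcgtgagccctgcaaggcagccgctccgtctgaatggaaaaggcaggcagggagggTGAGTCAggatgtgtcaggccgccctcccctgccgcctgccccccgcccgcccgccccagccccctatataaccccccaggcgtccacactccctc
OSMR: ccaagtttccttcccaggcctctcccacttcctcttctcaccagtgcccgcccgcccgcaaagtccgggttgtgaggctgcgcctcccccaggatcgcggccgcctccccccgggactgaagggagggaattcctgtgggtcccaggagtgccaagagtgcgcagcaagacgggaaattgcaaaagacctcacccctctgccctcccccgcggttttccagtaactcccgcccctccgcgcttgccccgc

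The IL6 window held 3 matches: the CRE core from -163 to -158, the C/EBP motif from -155 to -148 and the NF-kB consensus, read as GGGATTTTCC, from -73 to -64. The IL11 window held 1, an AP-1 motif from -96 to -90, and the OSMR window held 0. None of these matches overlapped another. LIFR has 3 RefSeq starts, and 2 of their windows held a STAT motif, TTCATCGAA in one and TTCCTTGAA in the other. The windows of IL6R, IL6ST, SOCS3 (2 starts) and STAT3 held 0 matches to the 5 motifs. LIF was not matched in the table, so 8 of 9 genes had a window. Of all 35116 windows, 6.57% held the AP-1 motif, 7.10% the CRE core, 4.90% the C/EBP motif, 6.57% the STAT motif and 5.21% the NF-kB consensus. A match shows only that the letters are present.

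Among the ligands, IL6 was far higher on both treated arrays, IL11 was lower on both, and LIF differed little. The gene value is the median over a gene's probe sets of the log2 difference between arrays, and a gene is called here at 2-fold, a log2 difference of 1. By that rule 2 of the 9 genes (IL6 and OSMR) were higher and 1 (IL11) was lower with estradiol, beside 3.94% of all genes higher and 2.18% lower. On the ERα17p array 3 genes (IL6, OSMR and LIFR) were higher and 1 (IL11) lower, beside 3.34% and 2.48% of all genes. At 1.5-fold, LIFR joined the higher genes on the estradiol array and IL6ST those on the ERα17p array, which made 3 and 4 higher and 1 lower on each. All genes past 1.5-fold were 10.6% higher and 8.42% lower for estradiol, and 9.56% higher and 8.82% lower for ERα17p. The members were picked with these differences known, so nothing is read from their counts against those shares. Both comparisons use the same vehicle array, and the values for the 2 agents are not independent of each other.

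IL6, the cytokine that gives the family its name, had 1 probe set (205207_at). Its value was -3.22 with vehicle, 0.62 with estradiol and 0.19 with ERα17p. The vehicle array was the low one, and both treated arrays lay above the reference, the estradiol array more so. The difference from vehicle was 3.84 for estradiol (14.3-fold) and 3.41 for ERα17p (10.6-fold). These ranked 9 and 8 from the top among 19775 genes, and on the vehicle array only 27 of 54675 probe sets had a lower value than IL6. After quantile normalisation of the 3 arrays the differences were 2.61 and 2.01. Set against the reference level in place of the vehicle array, they were 0.62 and 0.19.

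IL11, which signals through IL11RA and IL6ST, had 2 probe sets that went the same way with unequal size. Probe set 206924_at read 1.54 with vehicle, -1.20 with estradiol and -0.77 with ERα17p. Probe set 206926_s_at read 0.31, -0.19 and -0.47 on the same arrays. Vehicle was the high array in both, the opposite of IL6. The gene value was -1.62 for estradiol and -1.55 for ERα17p, ranks 67 and 85 from the bottom. On 206924_at alone the differences were -2.74 and -2.31, and on 206926_s_at they were -0.51 and -0.79, so the call rests on 1 of 2 probe sets. Against the reference level the gene was at -0.69 and -0.62.

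LIF, the leukaemia inhibitory factor, had 1 probe set (205266_at) with -0.21 under vehicle, 0.06 under estradiol and 0.00 under ERα17p. The 3 arrays lay within 0.27 of each other. The differences from vehicle were 0.27 and 0.22, or 1.21-fold and 1.16-fold, and did not reach the 2-fold limit.

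**Figure D1:**
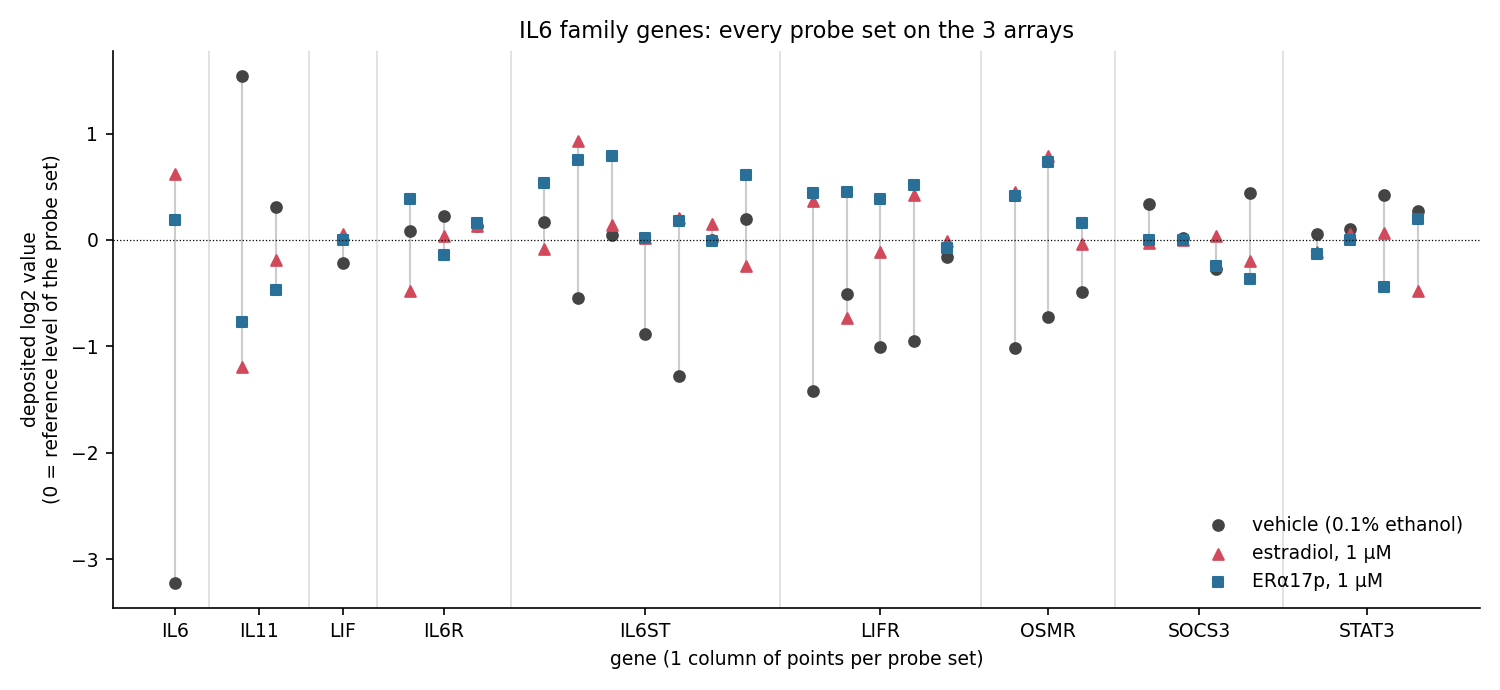
Deposited log2 values of the 30 probe sets of the 9 genes on the vehicle (circles), estradiol (triangles) and ERα17p (squares) arrays, with 1 column of points per probe set and 0 at the reference level. IL6 lies at -3.22 on the vehicle array and at 0.62 and 0.19 on the treated arrays, IL11 shows the opposite order, and most OSMR and LIFR probe sets are lowest on the vehicle array.

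Of the receptors, OSMR was higher on both treated arrays, LIFR was higher with unequal probe sets, IL6ST split by probe set, and IL6R differed little. OSMR, the oncostatin M receptor subunit, had 3 probe sets. Probe set 1554008_at read -1.01 with vehicle, 0.45 with estradiol and 0.42 with ERα17p. Probe set 205729_at read -0.73, 0.79 and 0.73, and 226621_at read -0.49, -0.04 and 0.16. Vehicle was the lowest array in all 3. The gene value was 1.47 for estradiol (2.77-fold, rank 251 from the top) and 1.43 for ERα17p (2.70-fold, rank 246). Of genes with 3 probe sets, 38.4% and 38.6% had all 3 on one side of vehicle in these comparisons. Against the reference level OSMR was at 0.45 and 0.42, under the limit.

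LIFR, the receptor subunit for LIF, had 5 probe sets, 4 of them lowest on the vehicle array. Probe set 205876_at read -1.42 with vehicle, 0.36 with estradiol and 0.45 with ERα17p, and 227771_at read -0.95, 0.42 and 0.51. On these both treated arrays were similarly high. On 225575_at the values were -1.01, -0.11 and 0.38, with ERα17p above estradiol and both above vehicle. On 225571_at they were -0.51, -0.73 and 0.45, and only the ERα17p array lay above vehicle. Probe set 229185_at was nearly flat at -0.16, -0.01 and -0.08. The gene value was 0.89 for estradiol (1.86-fold) and 1.39 for ERα17p (2.62-fold), the first under the 2-fold limit and the second past it. That the limit was passed in only 1 comparison does not show a difference between the agents. The gene value of ERα17p minus estradiol was 0.09, but its probe sets were uneven. On 225571_at that difference was 1.18, on 225575_at 0.49, and on the others between -0.07 and 0.09. As a mean of probe sets it was 0.36. Against the reference level the gene was at -0.01 and 0.45.

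IL6ST, the shared signal-transducing subunit, had 7 probe sets that fell into different patterns. Probe set 212196_at read -1.28 with vehicle, 0.20 with estradiol and 0.18 with ERα17p. Probe sets 204864_s_at (-0.55, 0.93 and 0.75) and 212195_at (-0.89, 0.01 and 0.02) had the same order, with vehicle low and the treated arrays alike. In 3 others the ERα17p array was highest: 204863_s_at read 0.17, -0.08 and 0.54, 211000_s_at read 0.05, 0.14 and 0.79, and 234967_at read 0.19, -0.25 and 0.61 in the same order. The seventh, 234474_x_at, stayed between -0.01 and 0.15. The gene value was 0.15 for estradiol and 0.74 for ERα17p, and the probe sets ranged from -0.44 to 1.48 and from -0.01 to 1.46, a spread of 1.92 and 1.47. The median spread over genes with 7 probe sets was 1.35 and 1.23. Without probe sets whose names end in _s_at or _x_at, which can match several transcripts, the estradiol value was 0.90 in place of 0.15.

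IL6R, the IL6-binding receptor, had 3 probe sets that differed from vehicle by at most 0.56 in size. Probe set 226333_at read 0.13 (vehicle), 0.13 (estradiol) and 0.16 (ERα17p). Probe set 217489_s_at read 0.23, 0.03 and -0.14 in that order of arrays, and 205945_at read 0.09, -0.48 and 0.38. The treated arrays went opposite ways on the last. The gene value was -0.19 for estradiol and 0.03 for ERα17p, and the second had the other sign, -0.01, as a mean of probe sets.

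SOCS3 and STAT3, inside the cell, stayed under the 2-fold limit on all of their probe sets. SOCS3 had 4: 227697_at read 0.44 with vehicle, -0.20 with estradiol and -0.37 with ERα17p, and 206359_at read 0.34, -0.03 and 0.00. On both, vehicle was the highest array. Probe set 206360_s_at was flat at 0.02, 0.00 and 0.00, and 214105_at read -0.27, 0.04 and -0.24. The gene value was -0.20 for estradiol and -0.18 for ERα17p.

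STAT3, the transcription factor of the pathway, was below vehicle on all 4 probe sets in both comparisons. The sizes were small, with gene values of -0.26 and -0.14. The largest were on 225289_at, which read 0.42, 0.06 and -0.44 with vehicle, estradiol and ERα17p, and 243213_at, which read 0.27, -0.48 and 0.20. The other 2 probe sets, 208991_at (0.05, -0.11 and -0.13) and 208992_s_at (0.10, 0.06 and 0.00), differed by 0.18 or less. Of genes with 4 probe sets, 27.5% and 28.0% had all 4 on one side of vehicle. The array measures mRNA and holds nothing on STAT3 phosphorylation.

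**Figure D2:**
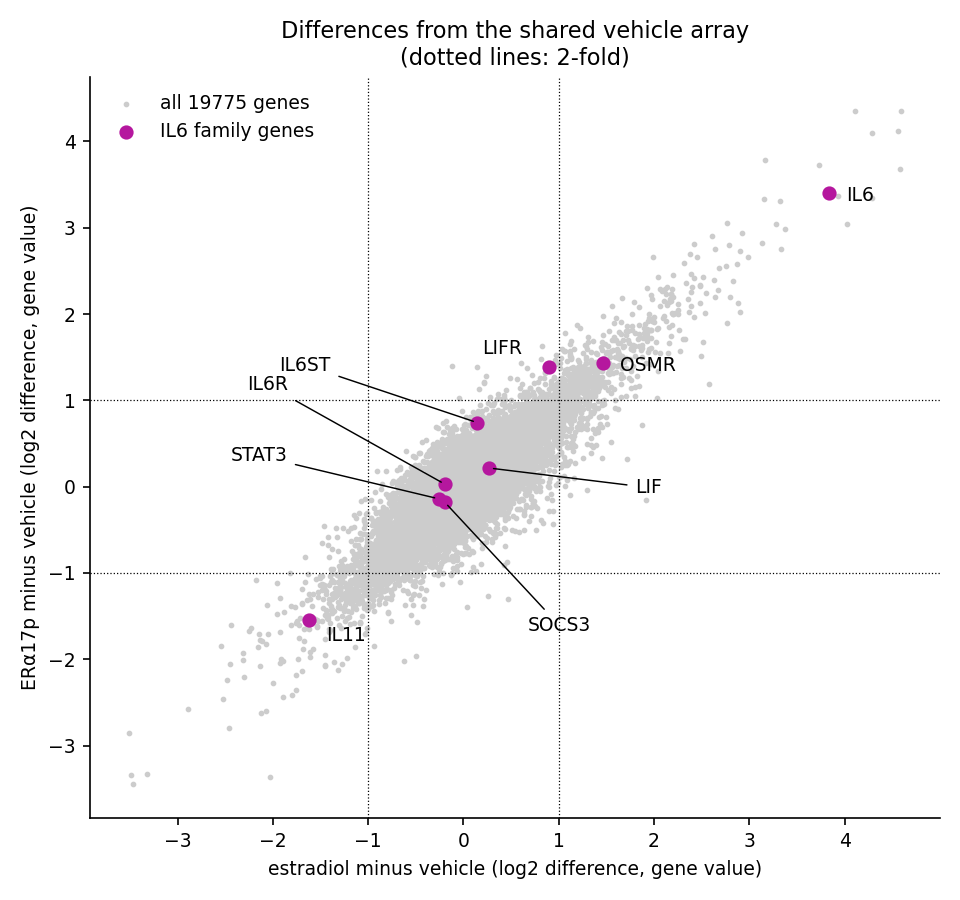
Gene values (log2 difference) of estradiol minus vehicle on the x axis and ERα17p minus vehicle on the y axis, with 1 point per gene, all 19775 genes in grey and the 9 IL6 family genes in purple; dotted lines mark 2-fold. IL6 lies at 3.84 and 3.41, OSMR at 1.47 and 1.43, LIFR at 0.89 and 1.39 and IL11 at -1.62 and -1.55, and the other 5 lie inside the lines; both axes share the vehicle array.

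Taken by probe set, 7 of the 30 exceeded vehicle by 2-fold or more with estradiol and 1 was lower by that much, against 8 and 1 with ERα17p. Over all 41097 probe sets with 1 symbol the shares were 6.14% higher and 4.02% lower, and 5.63% and 3.82%. The vehicle array itself was at least 2-fold from the reference on 6 of the 30 probe sets: 1 each of IL6, IL11, IL6ST and OSMR, and 2 of LIFR. The estradiol array was so on 1, the IL11 probe set 206924_at, and the ERα17p array on 0. Over all probe sets with 1 symbol these shares were 5.87%, 0.314% and 0.197%.

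Set directly against each other, the treated arrays differed little in these genes, and this comparison leaves the vehicle array out. The gene values of ERα17p minus estradiol lay between -0.43 (IL6) and 0.09 (LIFR). Of the 9 genes, 0 were past 2-fold or 1.5-fold in either direction. The share of all genes past 2-fold was 0.0354% higher and 0.212% lower, and 1.29% and 2.04% passed 1.5-fold. IL6 was 1.35-fold lower on the ERα17p array than on the estradiol array, rank 1000 from the bottom. Single probe sets differed more. LIFR probe set 225571_at was 1.18 higher on the ERα17p array, the only one of the 30 past 2-fold. The 2-fold shares over all probe sets with 1 symbol were 0.226% higher and 0.314% lower. IL6R probe set 205945_at was 0.86 higher, and the 3 IL6ST probe sets that stood high on the ERα17p array, 204863_s_at, 211000_s_at and 234967_at, were 0.62, 0.65 and 0.86 higher. STAT3 probe set 243213_at was 0.68 higher and 225289_at was at -0.50. Most other probe sets of these genes did not move with them: the remaining 4 of IL6ST lay between -0.18 and 0.00. LIFR probe set 225575_at did, at 0.49, while the other LIFR probe sets lay between -0.07 and 0.09. In all, 6 of the 30 probe sets were past 1.5-fold, each higher on the ERα17p array. Over all probe sets with 1 symbol, 2828 of 41097 were past it in either direction.

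**Figure D3:**
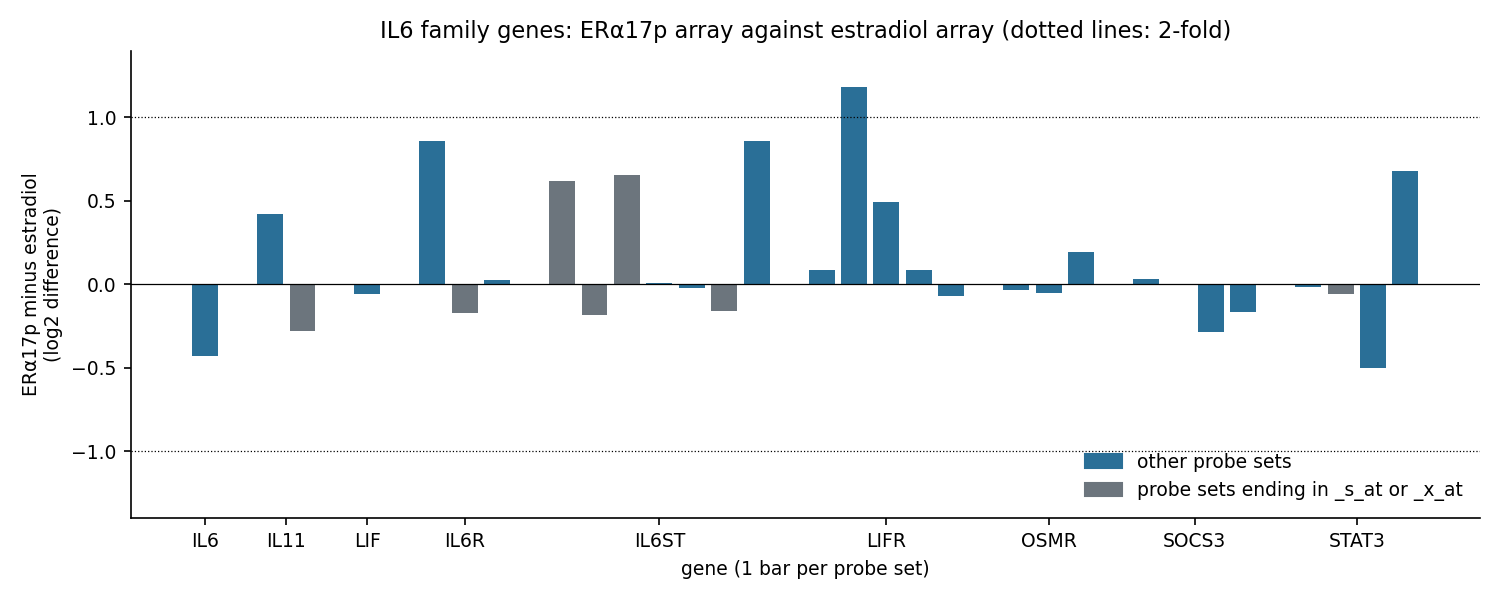
Log2 difference of ERα17p minus estradiol for each of the 30 probe sets, 1 bar per probe set, with probe sets that can match several transcripts in grey; dotted lines mark 2-fold. The LIFR probe set at 1.18 passes the line, and the bars of IL6R, IL6ST and STAT3 are uneven within each gene.

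The other genes of the pathway were followed in 7 lists of 103 genes, of which 95 had a probe set with a single symbol. Among the other ligands, 0 of 5 measured passed 2-fold in either comparison. Their medians were -0.23 and -0.22, and OSM, the ligand of OSMR, was at -0.23 and -0.07 for estradiol and ERα17p. IL27 was at -0.54 and -0.37, CTF1 (cardiotrophin 1) at -0.41 and -0.22 and EBI3 at 0.00 and -0.51. Of the other receptors 0 of 4 passed 2-fold: IL11RA was at -0.23 and -0.27, IL31RA at 0.23 and 0.43, IL27RA at -0.24 and -0.13 and CNTFR at 0.07 and 0.09. Over all genes the medians of these comparisons were 0.00 and 0.00. The shares of all genes past 2-fold were 3.94% higher and 2.18% lower for estradiol, and 3.34% and 2.48% for ERα17p. Nothing is read from counts of 0 in lists this short.

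Kinases, STAT factors and adaptors had 0 of 10 past 2-fold, and nothing is read from that count. Beside it, 3.94% of all genes were higher and 2.18% lower for estradiol, and 3.34% and 2.48% for ERα17p. JAK2, a kinase bound to these receptors, was at 0.15 for estradiol and 0.65 for ERα17p, and its 3 probe sets ranged from -0.13 to 0.91 and from 0.20 to 1.42. SOS1, which activates RAS, was at 0.34 and 0.51, the adaptor SHC1 at -0.43 and -0.59, and STAT5A at -0.30 and -0.53. The list medians were -0.07 and 0.05.

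Of 15 inhibitors and receptor-cleaving proteases, 2 were higher and 0 lower past 2-fold on each treated array, with medians of 0.09 and 0.08. The shares of all genes were 3.94% higher and 2.18% lower for estradiol and 3.34% and 2.48% for ERα17p. SOCS6, a relative of SOCS3, was at 1.07 and 1.57, and all 3 of its probe sets were higher in both comparisons. ADAM10, a surface protease that can shed IL6R, was at 1.28 and 1.43, and its 3 probe sets ranged from 0.50 to 3.01 and from 0.59 to 2.74. SOCS5 was at 0.56 in both, and ADAM17, the other sheddase, at 0.58 and 0.42. ADAM10 is a protease and no inhibitor of signalling, so the 2 genes past the limit differ in role.

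Among 24 STAT3 targets, 2 passed 2-fold on the high side and 3 on the low side for estradiol, and 3 on each side for ERα17p, with medians of 0.26 and 0.09. ICAM1, a leukocyte adhesion molecule, was at 2.77 and 1.90, with its 3 probe sets between 1.22 and 2.90 and between 0.97 and 2.22. VEGFA, an angiogenic factor, was at 1.72 and 1.86 with 4 probe sets between 1.20 and 2.24 and between 1.60 and 2.29. On the low side were JUNB (-1.41 and -1.30) and FOS (-1.32 and -1.21), both AP-1 subunits with 1 probe set each. The third gene on the low side, BCL6, a transcriptional repressor, was at -1.29 and -1.20, and TIMP1, a metalloprotease inhibitor, was the third on the high side for ERα17p. The 3 probe sets of BCL6 ranged from -1.34 to -0.11 and from -1.34 to -0.37. TIMP1 was at 0.99 for estradiol, just under the limit, and at 1.07 for ERα17p, and the treated arrays differed by 0.08. These last 2 were named after their values were seen. After quantile normalisation or scaling to equal SD, 0 pathway genes were 2-fold lower in either comparison, JUNB, FOS and BCL6 included. Both settings give the arrays a common spread and so narrow the vehicle array. Fewer calls against vehicle are built into them, and nothing about these genes alone is read from the loss. Of all genes as deposited, 3.94% were past 2-fold on the high side and 2.18% on the low side for estradiol, and 3.34% and 2.48% for ERα17p.

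Acute phase genes, which IL6 induces in liver, had 3 of 13 on the high side of 2-fold and 0 on the low side in both comparisons, with medians of 0.13 and 0.15. All genes had 3.94% and 2.18% on these sides for estradiol and 3.34% and 2.48% for ERα17p. SERPINA1, an inhibitor of elastase, was at 1.97 and 1.61, but its 4 probe sets ranged from 0.19 to 3.74 and from -0.23 to 3.46. The complement component C3 was at 1.16 and 1.29, the iron-siderophore carrier LCN2 at 1.01 and 1.06, and SERPINA3 at 0.80 and 0.99. Each of the last 3 rests on 1 probe set.

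Regulators of IL6 transcription and of its mRNA had 3 of 24 past 2-fold on the high side and 2 on the low side in both comparisons, with medians of 0.00 and -0.03. The same shares over all genes were 3.94% and 2.18% for estradiol and 3.34% and 2.48% for ERα17p. IL1R1, the interleukin-1 receptor, was at 1.53 and 1.33, but one of its 2 probe sets was at 0.26 and 0.27. IL1B, a cytokine that induces IL6, was at 1.36 and 1.15 with its 2 probe sets alike for estradiol, at 1.35 and 1.38. The endotoxin receptor TLR4 was at 1.36 and 1.43, and its 4 probe sets ranged from 0.63 to 2.02 and from 0.60 to 2.57. NFKBIZ, a nuclear NF-kB cofactor, was lower at -1.29 and -1.16, and so was the AP-1 subunit JUN at -1.12 and -1.11, which was named after its value was seen. The 4 probe sets of JUN ranged from -2.46 to -0.50 and from -1.75 to -0.52. Beside these values the labelling spikes were 2.03 and 2.04 higher than on the vehicle array, and their part was not tested.

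**Figure D4:**
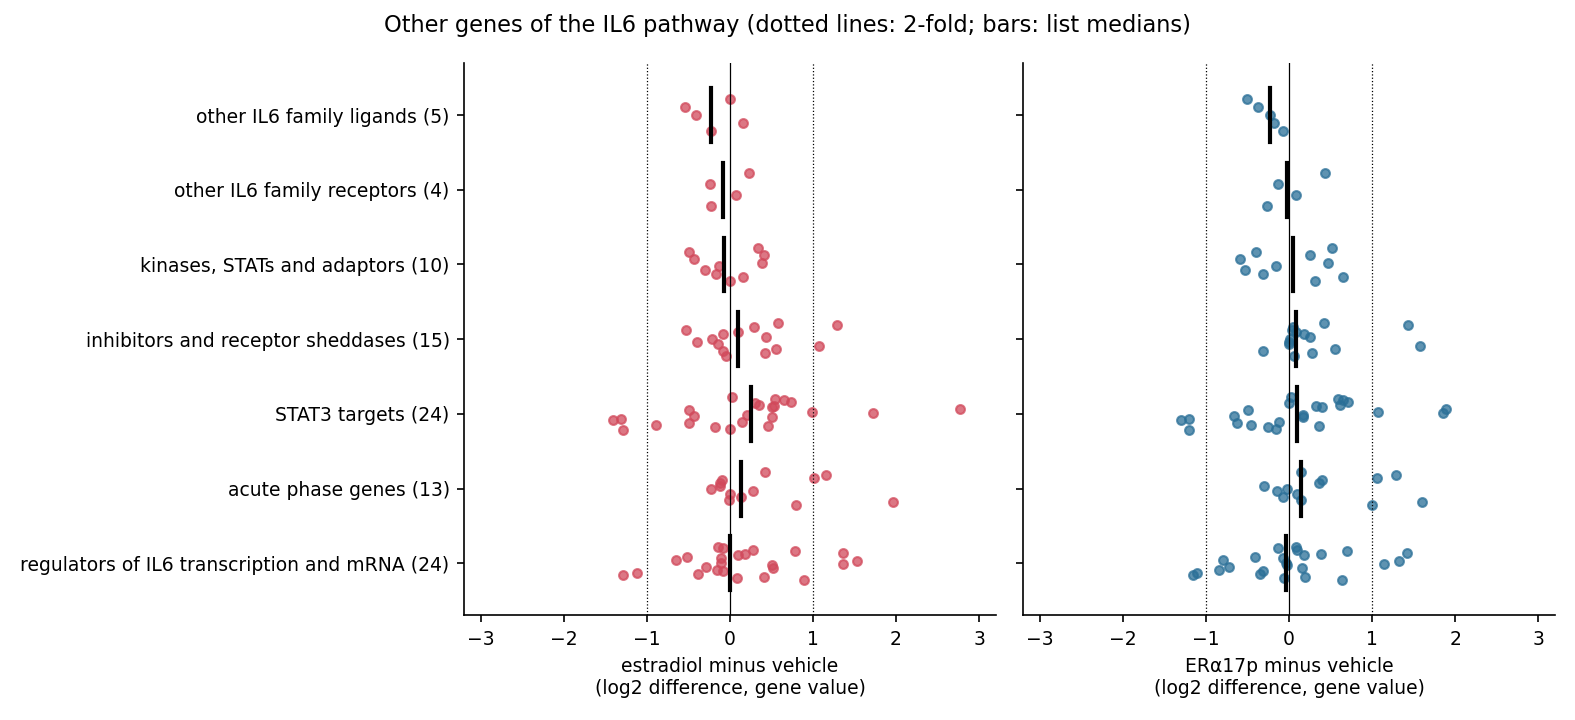
Gene values (log2 difference) of the 7 pathway lists for estradiol minus vehicle (left) and ERα17p minus vehicle (right), 1 point per gene, with black bars at list medians, dotted lines at 2-fold and the number of measured genes in brackets. List medians lie between -0.23 and 0.26, and genes past 2-fold occur among inhibitors and sheddases, STAT3 targets, acute phase genes and regulators of IL6.

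Over the 95 pathway genes together, 10 were higher and 5 lower past 2-fold for estradiol and 11 higher and 5 lower for ERα17p, beside 3.94% and 2.18% of all genes for estradiol and 3.34% and 2.48% for ERα17p. After quantile normalisation the counts were 5 higher and 0 lower in both comparisons, and the shares of all genes were smaller too, at 2.60% higher and 0.991% lower for estradiol and 2.01% and 1.49% for ERα17p. Between the treated arrays 0 of 95 passed 2-fold, and 1 passed 1.5-fold, ICAM1 at -0.68 on the ERα17p array. Of all genes in that comparison, 0.0354% were higher and 0.212% lower past 2-fold, and 1.29% and 2.04% past 1.5-fold. Nothing is read from these counts of 0 and 1. Markers of blood cells had 0 of 6 measured past 2-fold in any comparison with vehicle. Markers of fibroblasts and endothelium had 1 of 9 higher for estradiol and 0 for ERα17p. Mesenchymal-like line markers had 2 of 8 and 1 of 8 higher, and luminal markers 0 of 8. As levels are unknown, it could not be seen which of these markers were at or near 0.

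Genes most like each called member were found as the 3 with the smallest Euclidean distance over the 2 differences from vehicle. For IL6 these were SDR16C5 (3.93 and 3.37), RNF128 (3.73 and 3.72) and COXFA4L3 (4.03 and 3.05), at distances of 0.0983, 0.332 and 0.407. For IL11 they were LOXL3, CPT1C and PYCARD-AS1, all within 0.0439, at -1.63, -1.62 and -1.60 for estradiol and -1.56, -1.53 and -1.51 for ERα17p. For OSMR they were SMAD7, EFEMP1 and PJA2, within 0.0196, and for LIFR DNAJB14, SCYL2 and MOB1A, within 0.0842. The likeness is over 3 arrays only, with the vehicle array in both differences.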

How the data were processed

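RNA from MDA-MB-231 cells was hybridised to Affymetrix HG-U133 Plus 2 arrays, 1 each for vehicle, estradiol and ERα17p. RMA, which corrects background, normalises by quantiles and summarises probes into probe sets, is listed by the submitters' processing notes without a version. The deposited values were read as log2, the scale RMA writes, although no source states the base. Their centring, probe set by probe set, used a reference that no source describes: each array's median was 0.00, and 7.08% to 8.54% of values were exactly 0. This removes expression levels and leaves differences between arrays.

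Symbols came from the platform's annotation, and probe sets with several symbols were left out. Differences between arrays were taken per probe set, and the gene value is their median (Python 3.11.15, pandas 2.3.3, numpy 2.4.6). It need not equal the difference of 2 other gene values. The functions were tested on simulated data, with known shifts added to shuffled differences between the treated arrays. The vehicle array's values were not in that simulation, so it does not check the calls against vehicle. Promoter windows came from RefSeq, GRCh38.p14; motif matches were counted on both strands.

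The members and lists were chosen with earlier results of these data known. Named genes were all 9 members, up to 4 per list with the largest difference from vehicle in size, and the 3 nearest genes of each member past 2-fold. Alternatives were quantile normalisation, scaling to equal SD, the mean of probe sets, leaving out probe sets ending in _s_at or _x_at, a 1.5-fold limit and, chosen after seeing the data, the reference level in place of vehicle. The number of arrays limits the precision.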

Additional observations from a re-analysis of the deposited data

How the results depend on the processing

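No paired analysis was possible because each group had 1 array. A value was taken as moved when it crossed 2-fold or shifted by 1.5-fold or more, and a count when it changed by over 1.5 times; 0 called values reversed. With the mean of probe sets 0 of 27 member values moved, and 24 of 27 kept their sign. The sign changed for IL6R with ERα17p, at -0.01. It also changed for OSMR and STAT3 in ERα17p minus estradiol, both at 0.03. IL6 was 2.61 for estradiol and 2.01 for ERα17p after quantile normalisation, and 2.95 and 2.42 with arrays scaled to equal SD. Without probe sets ending in _s_at or _x_at, IL11 was at -2.74 and -2.31 and IL6ST at 0.90 for estradiol. With the reference level instead of vehicle, the values for estradiol were 0.62 (IL6), -0.69 (IL11), -0.0056 (LIFR) and 0.45 (OSMR), and those for ERα17p were 0.19 (IL6), -0.62 (IL11), 0.45 (LIFR) and 0.42 (OSMR). There 0 members and 0 pathway list genes were called higher or lower for either agent, and of all genes 0.147% were higher and 0.00506% lower for estradiol and 0.0152% and 0.0506% for ERα17p. The reference may hold the treated arrays, so this does not place a difference on one array.

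For estradiol, the pathway list genes called higher numbered 5 after quantile normalisation, 5 with equal SD, 5 without probe sets ending in _s_at or _x_at and 16 at 1.5-fold, against 10; those called lower were 0 after quantile normalisation and 0 with equal SD, against 5. For ERα17p, those called higher were 5, 7, 6 and 18 under the same settings, against 11; those called lower were 0 and 0 under both scalings and 11 at 1.5-fold, against 5. For ERα17p minus estradiol, 1 pathway list gene was lower at 1.5-fold, against 0. At 1.5-fold, 10.6% of all genes were higher for estradiol, and 9.56% were higher and 8.82% lower for ERα17p. For ERα17p minus estradiol 2.04% of all genes were lower at 1.5-fold, against 0.212% at 2-fold. The shares of all genes moved as well: for estradiol 2.60%, 2.65% and 3.71% were higher after quantile normalisation, with equal SD and without those probe sets, against 3.94%, and 0.991% and 0.956% were lower under the 2 scalings, against 2.18%; for ERα17p 2.01%, 2.17% and 3.16% were higher, against 3.34%, and 1.49% and 1.38% lower, against 2.48%. The 2 scalings give the arrays a common spread, which narrows the vehicle array (SD 0.494, against 0.260 and 0.241 on the treated arrays). Fewer calls against vehicle are therefore built into these 2 settings. What moved single genes was not tested. Signal over background cannot be given from centred values.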
